A study of Mus musculus with 11 samples.

Results

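Potassium channel genes were taken by name. They are the symbols of the deposited count matrix that start with Kcn, go on with letters and end in the number of a subunit (Kcna1, Kcnj10, Kcnk13), including Kcnip1 to Kcnip4, and the antisense RNA Kcnq1ot1 was left out. This gave 92 of the 25938 genes, called members here. Their 7487724 unique molecular identifiers (UMIs, each for 1 captured RNA molecule) made up 1.83% of all UMIs. The list takes in pore-forming subunits of the voltage-gated, calcium- or sodium-activated, inwardly rectifying and two-pore families as well as their auxiliary subunits.

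The counts come from single-nucleus RNA sequencing of mouse brain, with 1 library for each of 11 mice in which, per the labels, both copies carry the human transferrin receptor (TfR). All mice had 4 weekly intravenous doses, and tissue was frozen 72 h after the last one. The control group was ATV:BACE1 at 57 mg/kg (n = 3), a molecule that binds the TfR and carries no antisense oligonucleotide (ASO). OTV:Malat1 at 60 mg/kg (n = 3) carries an ASO against the nuclear RNA Malat1 on a TfR-binding molecule, nonTV:Malat1 at 60 mg/kg (n = 3, titled RSV-ASO) carries it on a molecule without TfR binding, and Malat1 ASO at 2.5 mg/kg (n = 2) is the free ASO. Replicate 1 of each group was female, 2.33 months old and in deposited batch 1. Replicate 4, which Malat1 ASO lacks, was male, 2.57 months old and in batch 3, and replicate 5 was male, 2.33 months old and in batch 4, so replicate number and batch cannot be told apart. Sex differed between replicate 1 and the other numbers, and age between replicate 4 and the others, each together with batch. The control dose of 57 mg/kg is that of the labels; the wording of the series text leaves room for 60 mg/kg. The labels name the posterior brain, whereas the deposited table of nuclei names cortex and a strain, C57BL/6J, with no word of the knock-in. Markers of cerebellar granule cells (Gabra6, Fat2, Cbln3) summed to 0.541 to 1.02 CPM (UMIs of a gene for every 1000000 UMIs) over the libraries, and Slc17a7, a marker of excitatory neurons, stood at 91.3 CPM in nuclei named neurons.

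As background, potassium channels let potassium ions out of or into the cell and so set the resting potential, end the action potential and time repetitive firing. Voltage-gated (Kv) channels are built of pore-forming subunits with cytoplasmic or transmembrane helpers, BK and SK channels open with calcium, inward rectifiers (Kir) hold the membrane near the potassium equilibrium potential, and two-pore (K2P) channels carry background leak. In the brain, glia use Kir and K2P channels to take up potassium released by active neurons, and vessels use ATP-sensitive Kir channels to set their tone.

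Upstream sequence was matched by symbol in RefSeq (build GRCm38.p6) for 67 of the 92 genes, as 92 windows of the 250 bases before an annotated start. The 5 windows shown belong to genes with a marked class or cluster pattern described further on: the channel subunits Kcne2 and Kcnj13 of the class named glia, the oligodendrocyte gene Kcna6, the mural cell gene Kcnj8 and Kcnip2 of neuronal cluster 2. They were chosen after the levels had been seen, and each is written 5′ to 3′ on the gene's strand, with capitals marking, on either strand, the TATA box letters TATAAA, the CCAAT box, the GC box letters GGGCGG or the SOX-type motif letters ACAAAG.
Kcne2 chr16:92292139-92292388 (+ strand): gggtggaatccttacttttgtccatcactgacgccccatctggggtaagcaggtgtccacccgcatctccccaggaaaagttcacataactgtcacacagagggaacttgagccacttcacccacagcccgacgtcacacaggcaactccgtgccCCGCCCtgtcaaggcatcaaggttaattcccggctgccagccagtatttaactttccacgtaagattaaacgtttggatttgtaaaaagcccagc
Kcnj13 chr1:87394730-87394979 (- strand): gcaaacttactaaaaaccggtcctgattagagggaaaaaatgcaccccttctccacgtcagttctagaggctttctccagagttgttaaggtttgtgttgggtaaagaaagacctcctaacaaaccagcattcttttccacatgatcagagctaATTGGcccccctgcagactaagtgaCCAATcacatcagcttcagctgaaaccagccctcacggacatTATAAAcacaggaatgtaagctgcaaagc
Kcna6 chr6:126740675-126740924 (- strand): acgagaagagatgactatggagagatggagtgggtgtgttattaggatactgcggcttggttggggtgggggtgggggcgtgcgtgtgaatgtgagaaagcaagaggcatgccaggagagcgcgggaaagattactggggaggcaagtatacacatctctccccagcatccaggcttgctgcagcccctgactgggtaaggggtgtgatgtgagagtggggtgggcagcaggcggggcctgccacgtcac
Kcnj8 chr6:142571615-142571864 (- strand): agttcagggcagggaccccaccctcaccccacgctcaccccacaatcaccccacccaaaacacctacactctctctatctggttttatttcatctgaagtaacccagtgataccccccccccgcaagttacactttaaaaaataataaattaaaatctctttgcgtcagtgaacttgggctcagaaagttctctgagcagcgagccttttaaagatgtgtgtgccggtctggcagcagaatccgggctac
Kcnip2 chr19:45816064-45816313 (- strand): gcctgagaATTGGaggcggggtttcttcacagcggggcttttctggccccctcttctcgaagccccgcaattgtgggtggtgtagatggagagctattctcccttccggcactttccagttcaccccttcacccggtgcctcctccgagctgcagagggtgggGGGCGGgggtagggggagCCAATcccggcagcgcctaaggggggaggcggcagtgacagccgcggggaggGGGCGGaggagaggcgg
Capitals are present in 3 of these windows: a reverse-strand GGGCGG match (written as its complement) in Kcne2, whose first of 2 annotated starts is shown, TATAAA with a CCAAT match on each strand in Kcnj13, and 2 matches each of CCAAT and GGGCGG in Kcnip2. Over the channel gene windows, TATAAA was found in 3 of 92 (3.26%, against 12.4% of the 32851 windows of all genes), CCAAT in 27 (29.3% against 33.8%), GGGCGG in 41 (44.6% against 32.7%) and ACAAAG in 10 (10.9% against 16.5%). In the windows shown, no match of one motif overlapped a match of another. A match describes letters only. The median GC content was 58.6% in the channel gene windows and 52.4% in all windows, with a median of 7 and 6 CpG pairs.

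The 11 libraries held 33235994 to 43972886 UMIs over 7546 to 13840 nuclei, with median totals of 2205 to 3666 UMIs per nucleus. Malat1 took 4.00% to 5.03% of UMIs in the 3 OTV:Malat1 libraries and 7.45% to 8.39% in the other 8, so the targeted RNA followed the labels of the OTV:Malat1 group. Of 108788 distinct barcodes, 1474 occurred in 2 libraries and 21 in 3. Doublets as called by the authors, 10.4% of the 110304 nuclei, were kept.

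Levels are given in CPM, a gene's UMIs scaled to the UMI total of the class or cluster in a library, and averaged over libraries with equal weight. A few members dominated the counts: Kcnip4 held 35.9% of all channel gene UMIs, Kcnd2 12.6%, Kcnq5 7.86%, Kcnma1 7.15% and Kcnh7 6.09%, together 69.6%. Gene length goes with these counts. Across the 92 genes, Spearman's rho between gene span and neuronal CPM was 0.753, a description over genes that share the same libraries and are not independent replicates. Per kilobase of gene span, the neuronal level was 8.32 CPM for Kcna1, 6.56 for Kcnip4, 4.91 for Kcnd2, 4.79 for Kcnj9 and 2.89 for Kcnq5. In the annotation 25 of the 92 genes overlap another measured gene (among those described below Kcnt2, Kcnk2, Kcnh7, Kcnab1, Kcnab2, Kcnd3, Kcnip1, Kcnip4, Kcnma1, Kcnmb4, Kcnn2, Kcnq1, Kcnq3 and Kcnj13), and with the use of strand not given their reads may be shared. At the low end, 7 members had under 50 UMIs in all nuclei, among them 3 with under 10.

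Nuclei named neurons (76211 nuclei, 69.1% of all) gave the channel genes 2.03% ± 0.0822 of their UMIs (SD, n = 11). The share was 0.601% in the class named glia, 0.507% in astrocytes, 0.453% in oligodendrocytes, 0.430% in leptomeningeal cells, 0.340% in vascular smooth muscle, 0.337% in microglia, 0.191% in pericytes and 0.188% in vascular endothelium. Of the 70 members with enough counts to place (at least 50 UMIs in all and 10 in the highest class), 35 had their highest mean level in neurons. For 19 of the 35, the lowest neuron library lay above the highest library of the next class. Of members with at least 50 UMIs, the minimum of 10 in the highest class removed only ones highest outside neurons, such as Kcng1, Kcnj4 and Kcnj11. The share placed in neurons therefore depends on that minimum, and the same counts over all genes were not taken. The next largest numbers were 9 members in astrocytes, 7 in oligodendrocytes and 6 in glia. Class names and levels come from the same counts, so these patterns are described and not tested.

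**Figure D1:**
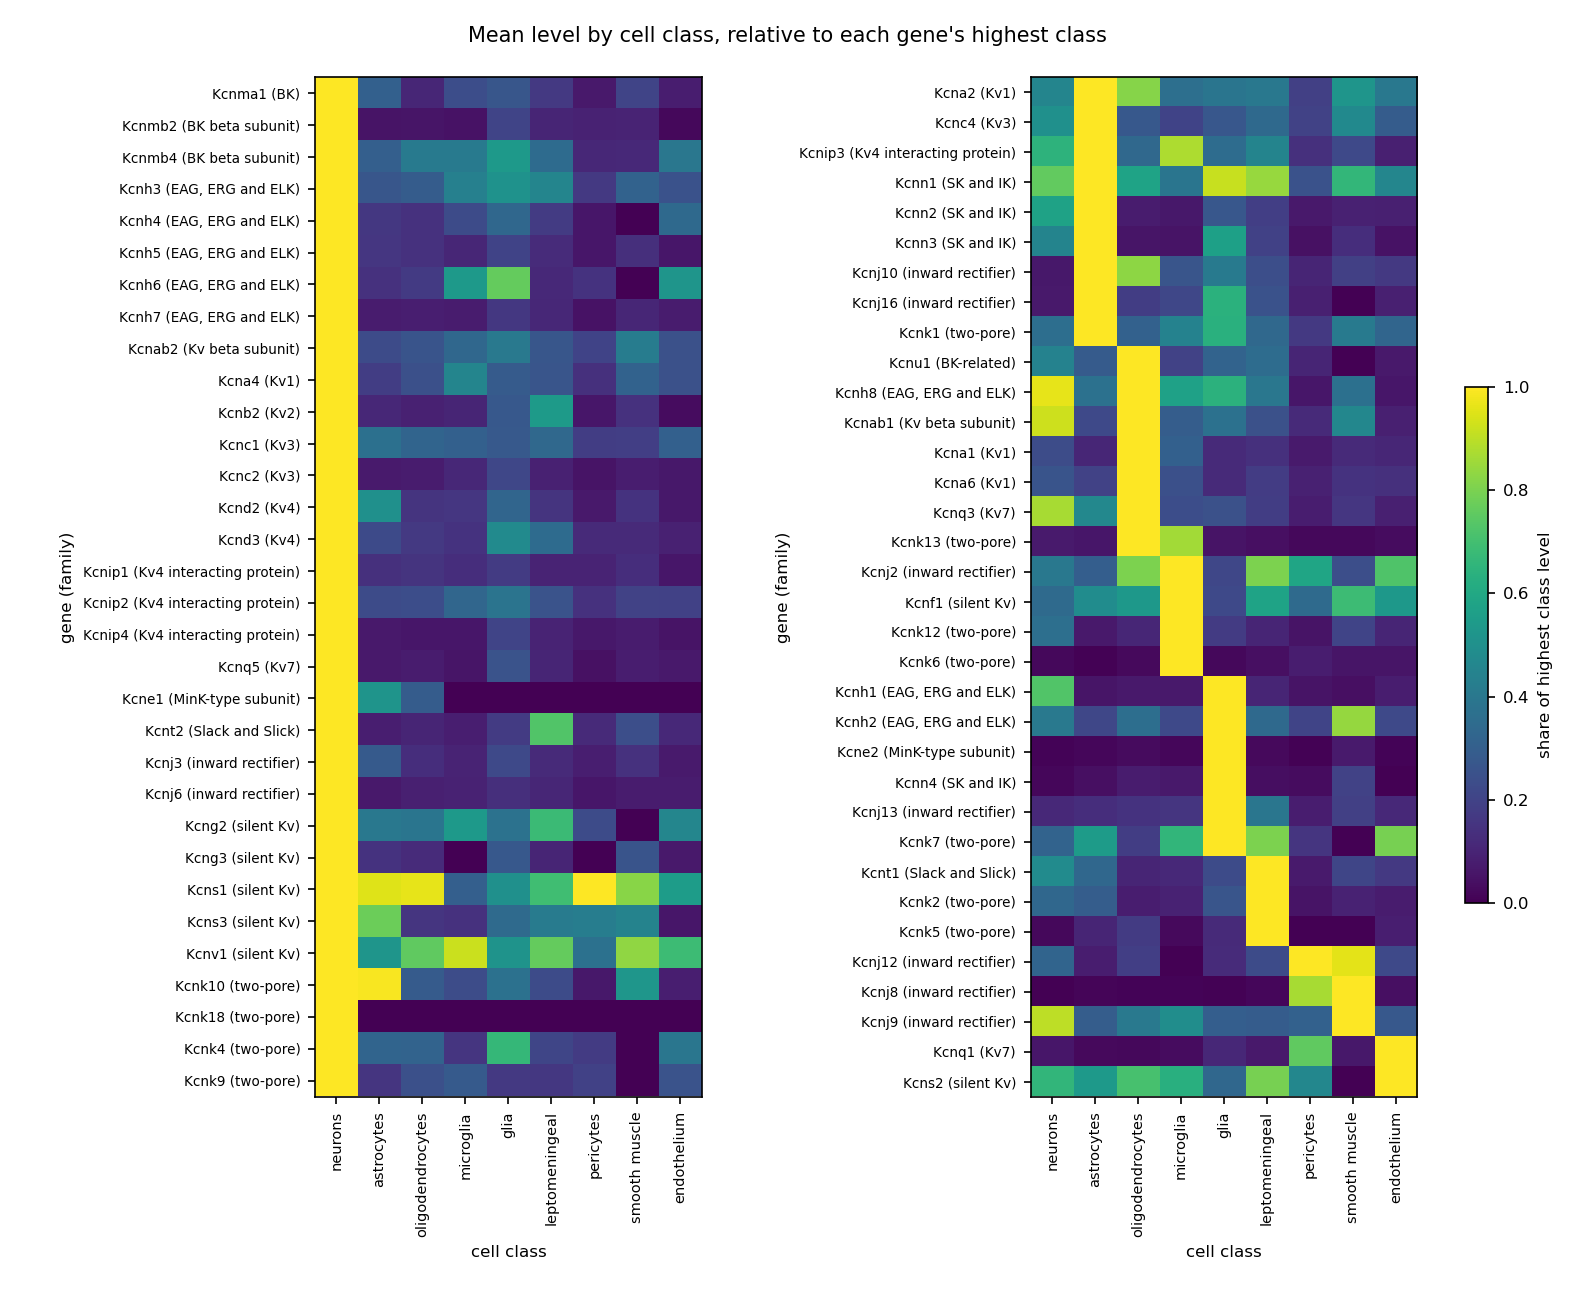
Mean level of 66 of the 70 placed potassium channel genes in 9 cell classes, each row divided by the gene's highest class (colour scale from 0 to 1), with the family in brackets. The left panel holds 32 genes highest in neurons and the right panel 34 genes highest in another class.

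Among the pore-forming subunits of neurons, both placed members of the Kv4 family peaked there. Kv4 subunits carry the fast A-type current of dendrites. Kcnd2 (Kv4.2) stood at 2526 ± 162 CPM (SD, n = 11), with 2318 to 2779 CPM over the libraries, and at 1271 ± 176 CPM (SD, n = 11) in astrocytes, the next class. No library of astrocytes reached a library of neurons. Kcnd3 (Kv4.3) had 193 ± 23.9 CPM (SD, n = 11) in neurons and 92.3 CPM in glia. Kcnb2, a Kv2 subunit of the delayed rectifier current, had 642 ± 30.4 CPM (SD, n = 11) in neurons and 351 CPM in leptomeningeal cells, with overlapping ranges, and was highest in neurons within 10 of 11 libraries.

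Kv3 channels close quickly and let neurons fire fast. Kcnc2 (Kv3.2) was highest in neurons, where it had 530.3 ± 49.1 CPM (SD, n = 11), 4.73-fold over glia. Kcnc1 (Kv3.1) had 92.7 ± 6.77 CPM (SD, n = 11), again without overlap with the next class. Kcnc4 (Kv3.4) was highest in astrocytes instead, at 23.9 ± 4.72 CPM (SD, n = 11) against 11.97 CPM in neurons, without overlap and within 10 of 11 libraries. The ether-à-go-go family, which includes the ERG channels, placed 5 of 8 members in neurons. Kcnh7 (ERG3) had 1261 ± 83.4 CPM (SD, n = 11), with 1145 to 1417 CPM over the libraries, 6.14-fold over glia. Kcnh5 had 147 ± 10.02 CPM (SD, n = 11), 4.93-fold over glia.

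Kv7 subunits carry the M-current that damps repetitive firing. Kcnq5 had 1629 ± 114 CPM (SD, n = 11) in neurons, 3.90-fold over glia and without overlap. The level of Kcnq3 was 928 ± 109 CPM (SD, n = 11) in oligodendrocytes and 806 ± 56.7 CPM (SD, n = 11) in neurons. The ranges of the 2 classes overlapped, but within each of the 11 libraries oligodendrocytes were higher. Of the G protein-gated Kir channels that slow neurons after transmitter release, Kcnj6 (GIRK2) had the largest neuronal fold of the members with UMIs in a second class. It had lowest 178, median 188 and highest 226 CPM in neurons, a mean of 196 ± 16.5 CPM (SD, n = 11), 7.36-fold over glia. Kcnj3 (GIRK1) had 353 ± 43.2 CPM (SD, n = 11) in neurons and 99.4 CPM in astrocytes. The level of Kcnj9 (GIRK3) was 42.2 CPM in neurons and 46.9 CPM in smooth muscle, with overlapping libraries.

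Auxiliary subunits followed their pores in part. Kcnip1, Kcnip2 and Kcnip4, calcium sensors that bind Kv4 channels, were highest in neurons at 137 ± 8.05 CPM (SD, n = 11), 63.1 ± 14.5 CPM (SD, n = 11) and 7448 ± 424 CPM (SD, n = 11). Kcnip4 was 4.89-fold over glia and Kcnip1 5.73-fold. Kcnip3 differed from them, with 185 CPM in astrocytes, 162 CPM in microglia and 120.0 CPM in neurons and overlapping libraries. The BK pore Kcnma1 had 1457 ± 95.6 CPM (SD, n = 11) in neurons, 3.26-fold over astrocytes, and its beta subunits Kcnmb2 and Kcnmb4 had 102 ± 8.95 CPM (SD, n = 11) and 43.1 ± 3.94 CPM (SD, n = 11). The sodium-activated Kcnt2 had 329 CPM in neurons and 239 CPM in leptomeningeal cells, with overlapping ranges but highest in neurons within all 11 libraries. Silent Kv subunits form no channel alone and alter Kv2 channels. Among them Kcnv1 had 16.02 CPM in neurons and 14.7 CPM in microglia, also with overlap. Kcns2 had 4.71 CPM in neurons and 7.17 ± 6.28 CPM (SD, n = 11) in endothelium. The endothelial value rests on 11 UMIs, with a lowest library of 0, and was the highest within only 4 of 11 libraries. Kcng1, at 9.34 CPM in neurons, had too few UMIs in its highest class to be placed.

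Two-pore leak channels were split over the classes, with 4 of 11 placed members highest in neurons. The acid-sensitive Kcnk9 (TASK3) had 36.5 ± 3.87 CPM (SD, n = 11) there and 10.4 CPM in microglia. Kcnk18 had 278 UMIs, 0.785 CPM, in neurons and 0 UMIs in the other 8 classes. A count of 0, read as at most 3 counts, allows up to 0.142 CPM in astrocytes and 0.182 CPM in oligodendrocytes, but up to 9.73 CPM in smooth muscle, so its absence could be read at this depth in the larger classes only. Such limits cover counting error only.

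RNA of neurons was measured in every other class. The neuronal markers Rbfox3, Snap25, Syt1 and Meg3 stood outside neurons at 6.03% to 35.1% of their neuronal level, depending on marker and class. Of the 35 members highest in neurons, 14 in glia and 28 each in microglia, oligodendrocytes, pericytes and endothelium were at or below the highest of these 4 marker ratios. Astrocytes had 20 such members, leptomeningeal cells 23 and smooth muscle 27. The part of carried RNA in the channel gene levels was not tested, and a low level of a neuronal channel gene in these classes is not read as expression here.

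Oligodendrocytes, the cells that make myelin, had their largest folds over the next class for a pair of Kv1 genes. Kcna1 (Kv1.1), known from the axon beside the node of Ranvier, had lowest 265, median 331 and highest 435 CPM, a mean of 334 ± 46.1 CPM (SD, n = 11), and 102 CPM in the next class, microglia. Kcna6 (Kv1.6) had 148 ± 19.4 CPM (SD, n = 11), 3.82-fold over neurons. For both genes all 11 oligodendrocyte libraries were above every library of the next class. Kcnu1, a relative of the BK channel, did the same against neurons at 8.94 ± 2.50 CPM (SD, n = 11). Over all classes it was highest in oligodendrocytes within only 8 of 11 libraries. Kcna2 (Kv1.2) was not set apart in this way, at 68.8 CPM in astrocytes, 56.4 CPM in oligodendrocytes and 31.3 CPM in neurons.

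The two-pore channel Kcnk13 was shared by oligodendrocytes and microglia. It had 351 ± 36.7 CPM (SD, n = 11) in the first and 302 ± 66.4 CPM (SD, n = 11) in the second, with overlapping libraries, and 25.9 CPM in neurons. The Kv beta subunit Kcnab1 was likewise shared by oligodendrocytes (519 ± 157 CPM (SD, n = 11)) and neurons (479.8 ± 65.2 CPM (SD, n = 11)). Its large SD in oligodendrocytes follows the replicate numbers, as given further on.

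Nuclei named oligodendrocytes fell mainly into the authors' clusters 3 (12991 nuclei) and 5 (779 nuclei), and some members differed between these clusters, a split looked at after the levels were seen. In cluster 5 the precursor markers Pdgfra and Vcan stood at 407 and 555 CPM, against 6.37 and 5.52 CPM in cluster 3, where the myelin gene Mog had 1076 CPM against 308. Kcnh8, of the ether-à-go-go family, had 186 ± 73.4 CPM (SD, n = 11) in cluster 5 and 3.196 ± 2.72 CPM (SD, n = 11) in cluster 3. Its libraries did not overlap between the clusters. Kcnk13 went the other way, again without overlap, with 398 ± 41.7 CPM (SD, n = 11) in cluster 3 and 95.4 ± 37.8 CPM (SD, n = 11) in cluster 5. Kcna1 had 373 and 143 CPM in the same order and Kcna6 165 and 61.7, also without overlap. The libraries did overlap for Kcnab1, with means of 573 and 250.2 CPM, for Kcnq3, with 980.4 and 721 CPM, and for Kcnj10, with 101.1 and 64.0 CPM.

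Astrocytes, which clear potassium from the space around neurons, had the highest level of 9 members, of which Kcnc4 and Kcnn2 stood clear of the next class. The Kir4.1 gene Kcnj10 had 113 ± 5.25 CPM (SD, n = 11) in astrocytes, 93.9 ± 8.78 CPM (SD, n = 11) in oligodendrocytes and 7.42 CPM in neurons. The lowest astrocyte library, at 104 CPM, lay under the highest of oligodendrocytes, at 109, although astrocytes were highest within all 11 libraries. Its partner subunit Kcnj16 (Kir5.1) had 31.8 ± 6.52 CPM (SD, n = 11) in astrocytes, 20.3 CPM in glia and 2.13 CPM in neurons, with overlap between the first pair. None of the 4 calcium-activated SK and IK genes was highest in neurons. Kcnn2 (SK2) had 396 ± 72.3 CPM (SD, n = 11) in astrocytes and 229 ± 23.9 CPM (SD, n = 11) in neurons, without overlap, and Kcnn3 (SK3) had 145 CPM in astrocytes, 82.1 in glia and 65.2 in neurons, with overlap of astrocytes and glia but highest in astrocytes within all 11 libraries. The two-pore gene Kcnk1 (TWIK1) had 99.0 ± 16.7 CPM (SD, n = 11) in astrocytes and 62.9 CPM in glia, also with overlap, and was highest in astrocytes within 10 of 11 libraries.

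In microglia, the resident immune cells, the two-pore gene Kcnk6 (TWIK2) stood out, with lowest 24.9, median 41.0 and highest 72.9 CPM and a mean of 45.5 ± 16.1 CPM (SD, n = 11). Every microglia library was above every library of pericytes, the next of the 9 classes compared, whose mean of 3.59 CPM was 12.7-fold lower. Perivascular macrophages (125 nuclei), left out of that ranking, had 5 UMIs of Kcnk6 when pooled, 36.1 CPM (95% Poisson interval 11.7 to 84.2). This interval covers the microglial mean, so Kcnk6 is not read as particular to microglia. The related Kcnk12 had 58.2 ± 30.8 CPM (SD, n = 11) in microglia and 21.3 CPM in neurons, with overlap. Kcnj2 (Kir2.1), a rectifier known from microglia, had 11.99 ± 14.4 CPM (SD, n = 11) in microglia, 9.64 CPM in leptomeningeal cells and 4.79 CPM in neurons, also with overlap.

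The class named glia (1525 nuclei) carried markers of choroid plexus (Ttr 3515, Clic6 267 and Folr1 126 CPM) and of ependyma (Tmem212 531 CPM), and it is therefore given only by its deposited name. Kcne2, a single-span subunit known from the choroid plexus epithelium, was highest there. Its levels in glia were 60.4, 26.2 and 77.1 CPM in ATV:BACE1, 65.2, 61.5 and 67.4 in nonTV:Malat1, 46.6, 37.1 and 47.2 in OTV:Malat1, and 70.0 and 38.01 in Malat1 ASO. The mean of 54.2 CPM was 13.6-fold over smooth muscle, where 7 of 8 libraries had 0 UMIs and 1 had 31.98 CPM, so the ranges overlapped and the fold rests on 1 library of few nuclei. Kcnj13 (Kir7.1), an epithelial Kir channel, had 159 ± 77.4 CPM (SD, n = 11) in glia and 62.2 CPM in leptomeningeal cells, and Kcnn4 (the IK channel) had 12.2 ± 7.28 CPM (SD, n = 11). Outside glia, Kcnj13 was at 8.12% to 39.1% of its glial level. The choroid marker Ttr was at 10.1% to 54.3% there, Folr1 at 1.26% to 8.76% and Kcne2 at 0.488% to 7.37%. The Kcnj13 locus lies within Gigyf2, and reads of the 2 genes may be split by the counting, whose use of strand is not given in the sources used here.

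Leptomeningeal cells had the highest level of Kcnk2 (TREK1, a stretch- and lipid-sensitive leak channel), at 471 ± 62.6 CPM (SD, n = 11), 2.999-fold over neurons and without overlap. Kcnk5 had 34.4 ± 27.8 CPM (SD, n = 11) there, with 8.93 to 101 CPM over the libraries, all above those of oligodendrocytes, the next class at 5.99 CPM. The sodium-activated Kcnt1 had 139 ± 30.0 CPM (SD, n = 11), 2.07-fold over neurons, with overlapping ranges but highest there within all 11 libraries. In the vessel wall, Kcnj8 (Kir6.1, the ATP-sensitive channel of mural cells) was at 178 ± 79.2 CPM (SD, n = 8) in smooth muscle and 154 ± 38.6 CPM (SD, n = 11) in pericytes. No other class exceeded a mean of 7.12 CPM, that of endothelium. Kcnq1 had 61.8 ± 35.5 CPM (SD, n = 11) in endothelium and 46.7 ± 15.1 CPM (SD, n = 11) in pericytes, with overlapping ranges and highest in endothelium within 8 of 11 libraries. Its locus overlaps the antisense RNA Kcnq1ot1. Nuclei named pericytes also carried the endothelial markers Flt1 and Cldn5 at 4270.1 and 2159 CPM, close to the 5579 and 2428 CPM of nuclei named endothelium, beside their own marker Vtn at 2487 CPM.

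**Figure D2:**
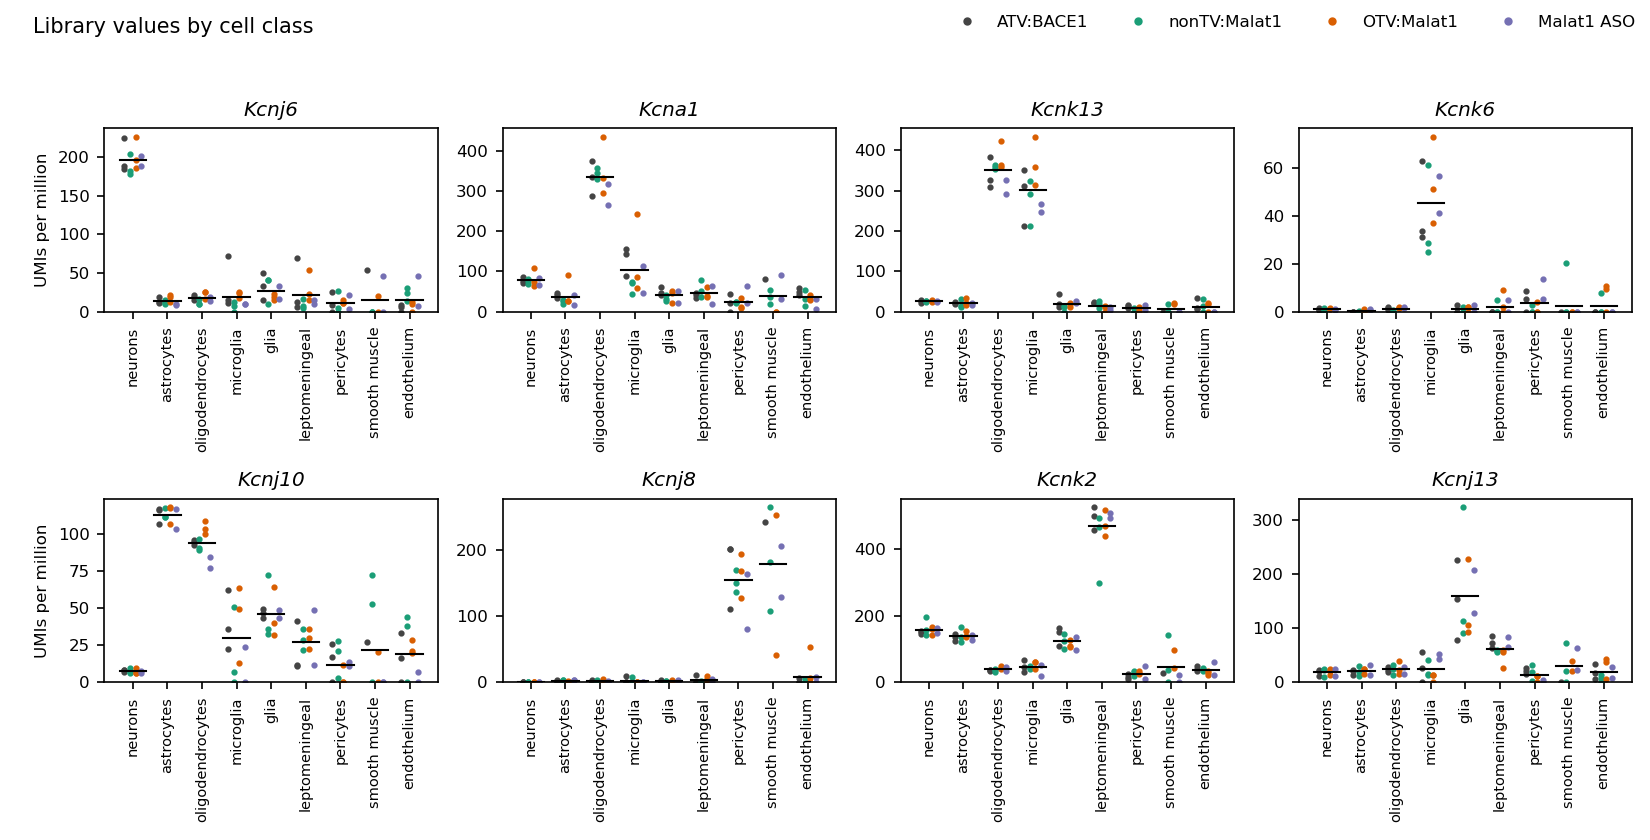
Level in CPM in 9 cell classes for 8 potassium channel genes; each point is 1 library, coloured by dosing group, and the line is the mean over libraries. Kcnj6 was highest in neurons, Kcna1 in oligodendrocytes, Kcnk13 in oligodendrocytes and microglia, Kcnk6 in microglia, Kcnj10 in astrocytes and oligodendrocytes, Kcnj8 in the 2 mural classes, Kcnk2 in leptomeningeal cells and Kcnj13 in glia.

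Within neurons, the authors' 5 neuronal clusters differed in many channel genes. Cluster 0 (31326 nuclei) carried an excitatory marker (Slc17a7 at 155 CPM), and cluster 1 (22208 nuclei) and cluster 9 (1912) carried inhibitory ones (Adarb2 1677 and 1461 CPM, Gad2 155 and 124). Cluster 2 (14713 nuclei) had Bcl11b at 373 and Foxp2 at 427 CPM, and the inhibitory marker Gad2 at 133 CPM, between its levels in clusters 9 and 1. Cluster 5 (4286 nuclei named neurons, 71.5% of the cluster) had the astrocyte gene Slc1a2 at 1321 and Pdgfra at 118 CPM, and 45.3% of these nuclei were called doublets. Cluster 9 had the myelin gene Mbp at 963 CPM, and 41.0% of its nuclei were called doublets. Of 83 members with enough counts, 22 were highest in cluster 0, 20 in cluster 1, 17 in cluster 2, 13 in cluster 5 and 11 in cluster 9. Without called doublets, 13 instead of 20 were highest in cluster 1. With all nuclei, library ranges stood clear of the next cluster by mean for 7, 0, 9, 2 and 2 of them. The same counts over all genes were not taken, so these numbers are not read as a trait of the channel genes.

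Cluster 0, with its excitatory marker, had 7 members clear of the next cluster. Kcnv1, a silent subunit, had 24.3 ± 2.46 CPM (SD, n = 11), 1.83-fold over cluster 5. Kcnh7 had 1867 ± 131 CPM (SD, n = 11), with 1725 to 2103 CPM over the libraries against 946 to 1257 CPM in cluster 5. The GIRK gene Kcnj6 had 287 ± 32.4 CPM (SD, n = 11) there and 70.2 CPM in cluster 2, and the leak channel gene Kcnk9 had 55.0 ± 4.10 CPM (SD, n = 11). Kcnt2 had 494 ± 57.4 CPM (SD, n = 11), 1.61-fold over cluster 5. For these 5 genes no library of another cluster reached the cluster 0 range. Kcne1, named by its fold of 2.27, had only 0.347 CPM in cluster 0, and with the ATV:BACE1 libraries alone its order against cluster 5 turned.

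Clusters 1 and 9, with Adarb2 and Gad2, were both high in the Kv3 genes Kcnc1 and Kcnc2 and in several auxiliary subunits. Kcnc2 had 1053 ± 85.1 CPM (SD, n = 11) in cluster 1 and 922 ± 137 CPM (SD, n = 11) in cluster 9, against 205 CPM in cluster 2. Kcnc1 had 162 and 144 CPM in clusters 1 and 9, and 61.5 CPM in cluster 2. Another Kv3 gene, Kcnc4, was highest in cluster 0, at 16.2 CPM, and had 9.92 and 10.1 CPM in clusters 1 and 9. Kcnip1 had 366 and 328 CPM in the same clusters and 47.4 CPM in cluster 2. The BK beta subunit gene Kcnmb2 had 279 and 274 CPM against 34.6 CPM in cluster 2, and the silent subunit gene Kcns3 26.2 and 26.3 CPM against 3.753. Between clusters 1 and 9 themselves the libraries of Kcnc2, Kcnc1, Kcnip1, Kcnmb2 and Kcns3 overlapped. Cluster 2 had the lowest mean of each of these genes although it carried Gad2 too, so they are not read as traits of inhibitory neurons. Kcnj5 (GIRK4), at 2.51 CPM in cluster 1, was 1.51-fold over cluster 9.

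Cluster 2 had 9 of its 17 members clear of the next cluster, a count without that of all genes beside it. Kcnip2 had 106 to 181 CPM over the libraries, a mean of 139 ± 27.0 CPM (SD, n = 11), and 34.9 to 56.7 CPM in cluster 0, the next cluster. Its partner pore Kcnd2 had 4138 ± 345 CPM (SD, n = 11), 1.75-fold over cluster 1. Kcna4 (Kv1.4), another A-type channel, had 87.2 ± 10.6 CPM (SD, n = 11), 2.78-fold over cluster 0, and Kcnab1, a beta subunit of Kv1 channels, had 1084 ± 174 CPM (SD, n = 11), 2.48-fold over cluster 9. The leak channel gene Kcnk2 had 301 ± 42.3 CPM (SD, n = 11) and Kcnh4 44.6 ± 9.41 CPM (SD, n = 11). Kcnj2 (Kir2.1) had 10.3 ± 3.72 CPM (SD, n = 11), 2.80-fold over cluster 0, with overlapping ranges. Of the 5 clusters, cluster 2 had the lowest mean of Kcnip1, Kcnc2 and Kcnmb2, with the values given above.

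In cluster 5 the leading members by fold were Kcnj16 with 12.2 ± 3.53 CPM (SD, n = 11), 5.56-fold over cluster 9, and, with smaller folds, Kcnip3 with 229 CPM, Kcnh8 with 76.0 CPM and Kcnn4 with 0.575 CPM. Cluster 9 led in Kcnk13, with 97.9 ± 13.2 CPM (SD, n = 11) against 36.4 CPM in cluster 2, and in the oligodendrocyte genes Kcna6 (71.8 CPM) and Kcna1 (135 CPM). Kcnk5 had 1.95 CPM there. Kcnip3 in cluster 5 stood above its mean in each of the 9 classes, the highest being astrocytes at 185 CPM. Kcnn4 in cluster 5 rests on 12 UMIs. Glial and myelin markers of the same clusters are given above, and the part of that RNA in the levels of these members was not tested. Among the flattest members over the 5 clusters, of those with at least 1000 UMIs, were Kcnj13 with a highest to lowest ratio of 1.31, Kcnq3 with 1.40, Kcna2 with 1.42, Kcnf1 with 1.48 and Kcnu1 with 1.49. For Kcnq3 this meant 925 CPM in cluster 2 and 661 CPM in cluster 1.

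**Figure D3:**
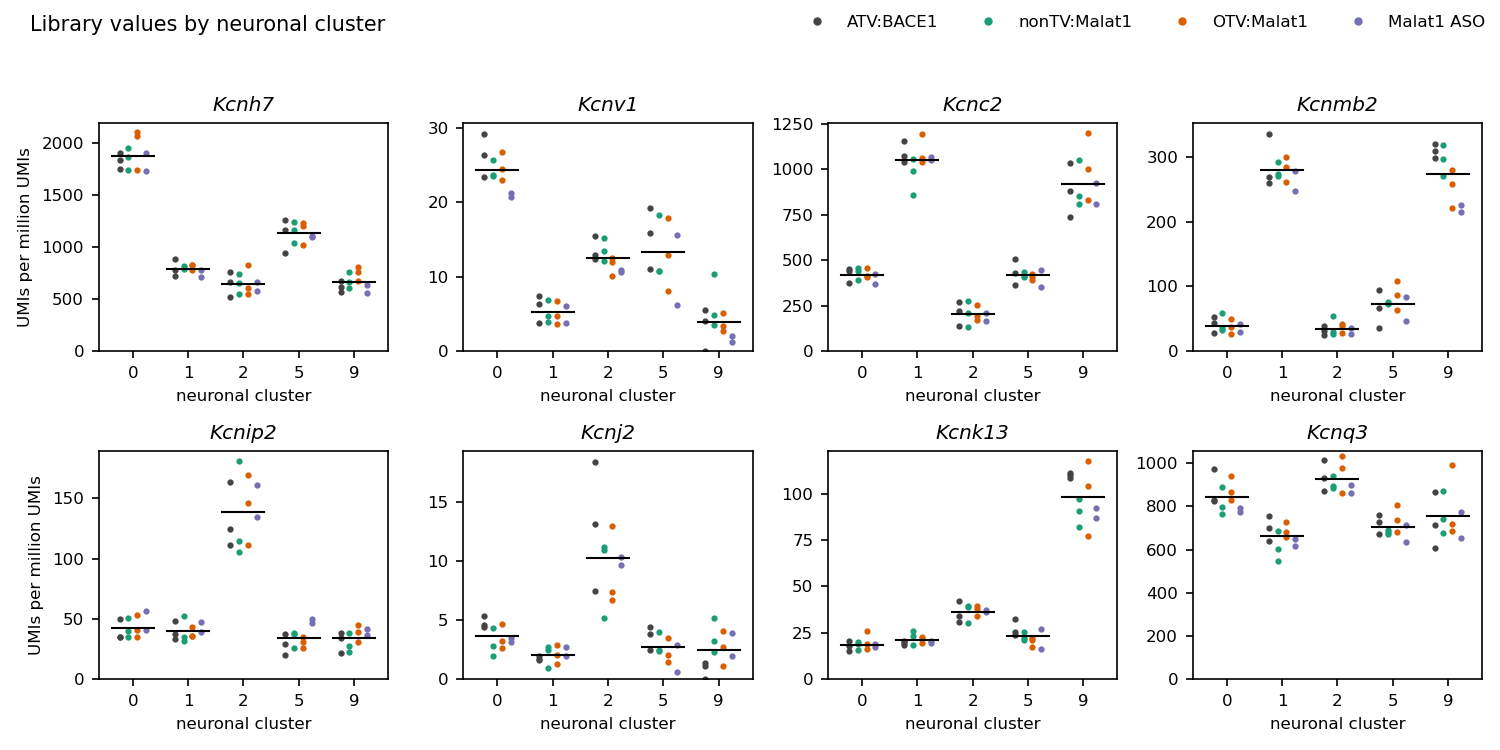
Level in CPM in the 5 neuronal clusters for 8 potassium channel genes; each point is 1 library, coloured by dosing group, and the line is the mean over libraries. Kcnh7 and Kcnv1 were highest in cluster 0, Kcnc2 and Kcnmb2 in clusters 1 and 9, and Kcnip2 and Kcnj2 in cluster 2. Kcnk13 was highest in cluster 9, while Kcnq3 varied least of these 8, from 661 to 925 CPM.

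No potassium channel gene passed an adjusted p of 0.05 between dosing groups in the main fits. With UMIs of all nuclei summed per library, edgeR's quasi-likelihood test with Benjamini-Hochberg adjustment over 21409 genes tested 84 of the 92 members and called 0 in each of the 4 contrasts, where it also called 0% of all genes. Malat1 itself was thus not called, although its share of UMIs did not overlap between OTV:Malat1 and the other groups. The 0 calls therefore do not show that the channel genes were unchanged. At an unadjusted p under 0.05 it had 0 members for OTV:Malat1 against ATV:BACE1, 0 for nonTV:Malat1 against ATV:BACE1, 1 for Malat1 ASO against ATV:BACE1 and 1 for OTV:Malat1 against nonTV:Malat1, where 0.752%, 0.901%, 1.75% and 0.766% of all genes had such a p. DESeq2 also called 0 members in each contrast. The first 3 contrasts share the ATV:BACE1 libraries. In such sums, fewer nuclei of a class and less RNA per nucleus cannot be told apart. Cells are not replicates here: each p sets a change against the spread between mice. These fits held the dosing group only, so that spread includes the differences between replicate numbers.

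The median log2 fold change of the 84 members was -0.0016 for OTV:Malat1 against ATV:BACE1 (0.0068 over all genes), -0.054 for nonTV:Malat1 against ATV:BACE1 (-0.0020), -0.034 for Malat1 ASO against ATV:BACE1 (-0.0015) and 0.066 for OTV:Malat1 against nonTV:Malat1 (0.0077). Members within 0.25 of 0 on the log2 scale numbered 76, 73, 72 and 74 of 84 in the same order, and the median SE of a member was 0.157, 0.157, 0.176 and 0.157. The 31 partner genes, which encode proteins that bind or work beside potassium channels (such as Dpp6 and Dpp10 of the Kv4 complex, or the Kv1 anchor Cntnap2), gave 29 tested and 0 called in each contrast.

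None of the members with the smallest unadjusted p passed the adjusted threshold. For several the libraries of the compared groups did not overlap. Without any change, 3 against 3 independent libraries separate in 10% of genes. Libraries here share differences by replicate number, and Malat1 ASO has only 2, so the rate in these comparisons can differ from 10%. As these genes were picked by their p, the separation is not read as support for a change. Kcne2, the subunit of the class named glia, had TMM-scaled levels (CPM after edgeR's trimmed mean scaling of the libraries) in all nuclei of 1.47, 0.993 and 1.40 in ATV:BACE1, 1.63, 1.42 and 1.46 in nonTV:Malat1, 0.849, 1.05 and 0.776 in OTV:Malat1 and 1.42 and 0.841 in Malat1 ASO CPM. The 3 OTV:Malat1 libraries were all below the 3 of nonTV:Malat1, and the log2 fold change between them was -0.76 (SE 0.252, unadjusted p = 0.0118, adjusted p = 1.00). Against ATV:BACE1, with overlapping libraries, it was -0.54 (SE 0.253, unadjusted p = 0.0558, adjusted p = 1.00). Within glia the OTV:Malat1 libraries were again below those of nonTV:Malat1, with a log2 fold change of -0.59 (SE 0.307, unadjusted p = 0.0650, adjusted p = 1.00).

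Kcnv1 had TMM-scaled levels in all nuclei of 16.5, 16.3 and 18.4 in ATV:BACE1, 14.0, 14.4 and 17.1 in nonTV:Malat1, 15.6, 13.3 and 15.3 in OTV:Malat1 and 12.9 and 14.1 in Malat1 ASO CPM. The Malat1 ASO pair was below the 3 ATV:BACE1 libraries by a log2 fold change of -0.34 (SE 0.128, unadjusted p = 0.0221, adjusted p = 1.00), and OTV:Malat1 was below them too, with -0.21 (SE 0.113, unadjusted p = 0.0885, adjusted p = 1.00). Kcnh6 had 2.03 and 2.39 in Malat1 ASO and 3.201, 2.95 and 3.49 in ATV:BACE1, a log2 fold change of -0.54 (SE 0.260, unadjusted p = 0.0630, adjusted p = 1.00). Kcnj14 had 0.558, 0.479 and 0.350 in OTV:Malat1 and 0.299, 0.310 and 0.320 in ATV:BACE1, a log2 fold change of 0.58 (SE 0.306, unadjusted p = 0.0853, adjusted p = 1.00), at levels under 1 CPM. Other genes with the smallest p in a contrast, chosen by rank only, were Kcnh1, Kcnmb4 and Kcna4 for nonTV:Malat1 against ATV:BACE1 (log2 -0.16, -0.15 and -0.18) and Kcns3 and Kcnc1 for OTV:Malat1 against nonTV:Malat1 (0.32 and 0.15).

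**Figure D4:**
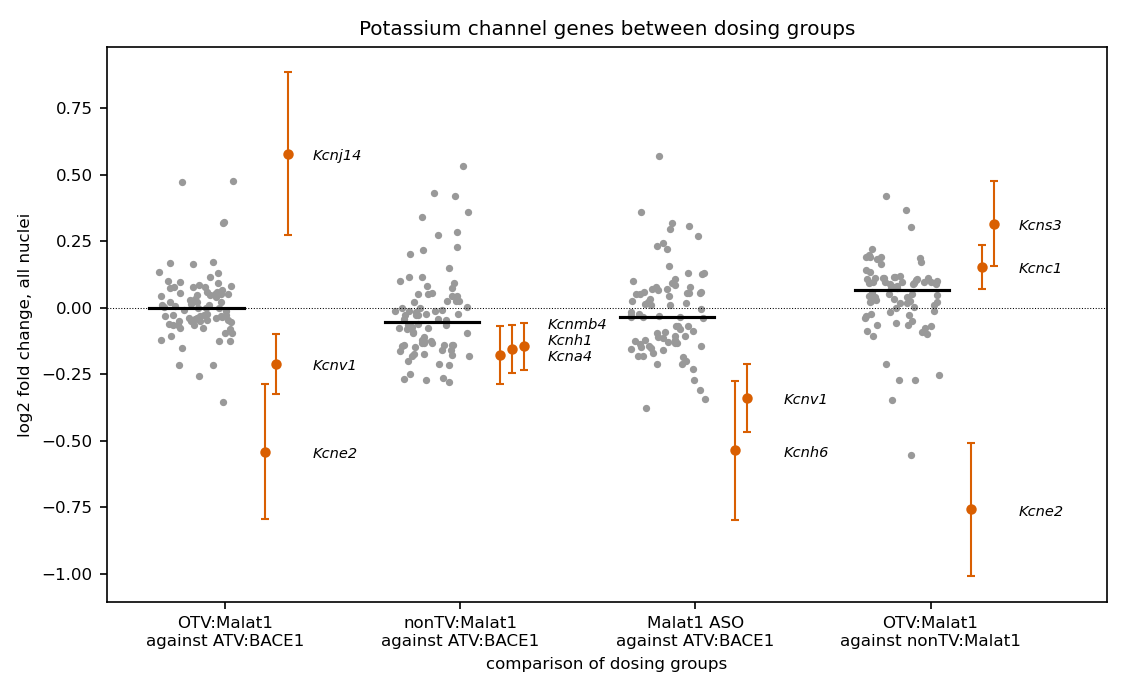
Log2 fold change of the 84 tested potassium channel genes in all nuclei for 4 comparisons of dosing groups; grey points are genes, black lines the median over members, and orange points with bars the named genes among the 3 with the smallest unadjusted p in each comparison and their standard errors. The medians lie between -0.054 and 0.066, and no gene passed an adjusted p of 0.05.

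Class by class the main fits also called no member. With the replicate number as a block, Kcnip4 in pericytes was called for nonTV:Malat1 against ATV:BACE1 and for OTV:Malat1 against nonTV:Malat1, as given below. The counts here are those of the main fits. Over 8 classes, 287 tests of members (296 over 9 classes for OTV:Malat1 against nonTV:Malat1) gave 0 calls in each contrast. Of all gene-by-class tests, edgeR called 0.00513% for OTV:Malat1 against ATV:BACE1, 0% for nonTV:Malat1 against ATV:BACE1, 0% for Malat1 ASO against the same control, and 0.00252% for OTV:Malat1 against nonTV:Malat1. At an unadjusted p under 0.05 there were 15 member tests for OTV:Malat1 against ATV:BACE1 (5.23%, against 2.27% of all tests), 25 for nonTV:Malat1 against ATV:BACE1 (8.71% against 2.05%), 12 for Malat1 ASO against ATV:BACE1 (4.18% against 2.61%) and 13 for OTV:Malat1 against nonTV:Malat1 (4.39% against 1.74%). Members of 1 class share its nuclei, so these tests are not independent. In the 5 neuronal clusters, 325 member tests gave 0 calls in each contrast, where 0.00262%, 0%, 0% and 0.00262% of all tests were called in the same order. Unadjusted, 6, 6, 8 and 4 had a p under 0.05 (1.85%, 1.85%, 2.46% and 1.23%, against 1.35%, 1.33%, 2.17% and 1.27% of all tests). Partner genes had 0 calls in 170 class tests (183 for the last contrast) and 0 in 134 cluster tests.

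The unadjusted results for nonTV:Malat1 against ATV:BACE1 lay mostly in the class named glia, leptomeningeal cells, endothelium and pericytes. In glia, 8 of 41 tested members had a p under 0.05 (19.5%, against 3.47% of all genes there), all of them lower in nonTV:Malat1: Kcnt2 by log2 -1.24, Kcnip2 by -1.16, Kcnh5 by -1.37, Kcnk13 by -1.32, Kcnab2 by -1.15, Kcnh7 by -0.74, Kcnma1 by -0.53 and Kcnq3 by -0.46. None passed the adjusted threshold. The median over the 41 members was -0.23 for nonTV:Malat1 (35 below 0), -0.33 for OTV:Malat1 (34 below 0) and -0.29 for Malat1 ASO (33 below 0), each against the shared ATV:BACE1 libraries, with medians over all genes between -0.0053 and 0.0056. The 4 neuronal markers summed to 2928, 2183 and 3437 CPM in glia of ATV:BACE1, 2102, 1634 and 2388 in nonTV:Malat1, 1562, 1783 and 3302 in OTV:Malat1 and 2331 and 2208 in Malat1 ASO. These ranges overlap, but within each replicate number ATV:BACE1 had the highest sum. The part of this RNA in the channel gene values was not tested. Endothelium had 5 of 7 members with such a p in the same contrast (71.4%, against 3.44%), again all lower in nonTV:Malat1. The 4 neuronal markers summed there to 1119, 1082 and 1383 CPM in ATV:BACE1 and 758, 1032 and 1092 CPM in nonTV:Malat1. The sums were 1018, 1416 and 1188 CPM in OTV:Malat1 and 499 and 1872 CPM in Malat1 ASO. Their part in the channel gene values was not tested. Against the same ATV:BACE1 libraries, OTV:Malat1 had 3 of 7 members with such a p in endothelium (42.9%, against 4.77% of all genes) and Malat1 ASO 1 of 7 (14.3%, against 4.11%). The median log2 fold change of the 7 was -0.93 for nonTV:Malat1, -0.96 for OTV:Malat1 and -0.046 for Malat1 ASO. Leptomeningeal cells had 5 of 24 members with such a p (20.8%, against 2.77% of all genes there). Of these, Kcnma1 (log2 -0.66), Kcnt1 (-0.59) and Kcnh1 (-1.02) were lower in nonTV:Malat1, and Kcnk5 (1.68) and Kcnb2 (0.96) were higher. The neuronal markers summed there to 1272, 2022 and 1294 CPM in ATV:BACE1 and 908, 1259 and 1521 CPM in nonTV:Malat1. None passed the adjusted threshold in either class.

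In pericytes, the calls of Kcnip4 and Kcnd2 depended on the processing, and both are named because of that. Kcnip4 in nuclei named pericytes had 317, 299 and 207 CPM in ATV:BACE1, 760.1, 2083 and 323 in nonTV:Malat1, 187, 332 and 159 in OTV:Malat1 and 149.9 and 435 in Malat1 ASO. The second nonTV:Malat1 value, of replicate 4, rests on 40 nuclei and 200 UMIs. The 4 neuronal markers moved with it: their summed level was 789, 760.3 and 666 CPM in ATV:BACE1, 1284, 2552 and 829.6 in nonTV:Malat1, 1109, 945 and 850.0 in OTV:Malat1 and 535 and 1191 in Malat1 ASO. For nonTV:Malat1 against ATV:BACE1 the log2 fold change was 1.88 (SE 0.422, unadjusted p = 1.25e-04, adjusted p = 0.251), and with the replicate number as a block it was 1.62 with an adjusted p of 0.0101. For OTV:Malat1 against nonTV:Malat1 it was -2.11 (SE 0.430, unadjusted p = 3.41e-05, adjusted p = 0.122), with the block -2.12 and an adjusted p of 3.94e-04. Without nonTV:Malat1 replicate 4 the 2 values were 0.99 and -1.23, and with called doublets left out they were -0.06 and -0.27. Among the other members, Kcnd2 (1.21), Kcnma1 (1.06) and Kcnq5 (1.38) also had an unadjusted p under 0.05 for nonTV:Malat1 against ATV:BACE1 in the same class, so that 4 of 13 tested members did (30.8%, against 4.2% of all genes). Kcnd2 was also called there without a filter on low counts (adjusted p = 0.00641) and without nonTV:Malat1 replicate 5 (adjusted p = 0.0132). Its log2 fold change was 0.76 without nonTV:Malat1 replicate 4 and 0.012 with called doublets left out. All 4 are genes highest in neurons, and the part of neuronal RNA in these values was not tested.

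The replicate numbers separated many members. The dosing fits above held the dosing group only, so differences between replicate numbers stayed in their spread. The counts that follow are therefore not comparable with those of the dosing contrasts. In a fit with dosing group and replicate number, edgeR's quasi-likelihood F test called 41 of 84 members in all nuclei (48.8%), where it called 47% of all genes, a share of members near that of other genes. Of the 41, 17 were higher in both replicates 4 and 5 than in replicate 1, 15 lower in both, and 9 differed in opposite directions. The median size of a called difference was 0.27 on the log2 scale for replicate 5 and 0.29 for replicate 4, each against replicate 1. In the neuronal clusters 129 of 325 member tests were called (39.7%, against 30.6% of all tests). Cluster 2 had 43 of 69 (62.3%, against 39.8%) and cluster 0 had 40 of 77 (51.9%, against 43%). Cluster 1 had 23 of 72 (31.9%, against 5318 of 17056 genes), a share near that of other genes. Cluster 5 had 15 of 60 (25%, against 2573 of 13575) and cluster 9 had 8 of 47 (17.0%, against 920 of 10721). Of the partner genes, 15 of 29 were called in all nuclei. Batch goes with the number, so they cannot be told apart. Replicates 1 and 5 have the same labelled age and differ in sex, and replicates 4 and 5 are of the same sex and differ in age. Leaving out ATV:BACE1 replicate 4 brought the count in all nuclei to 27 (32.1%, against 34.9% of all genes). The 4 astrocyte markers summed to means of 1233, 1169 and 871 CPM in replicates 1, 4 and 5, and the 4 neuronal markers to 10031, 10642 and 11070 CPM. The 4 microglia markers summed to 72.7, 109 and 117 CPM, with all replicate 1 libraries below the others, and the 4 leptomeningeal markers to 21.7, 17.0 and 13.5 CPM. The 4 oligodendrocyte markers had means of 894, 754 and 766 CPM, and the 2 thalamus and midbrain markers 168, 164 and 143 CPM. The 6 cortical layer markers summed to 837 to 883 CPM in replicate 5, below the 928 to 1021 CPM of replicate 1 and the 944 to 1007 CPM of replicate 4. The part of these lists in the differences in all nuclei, neurons and neuronal clusters was not tested.

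The 6 members with the smallest p in all nuclei were Kcnj13, Kcnj9, Kcnt2, Kcnip2, Kcna2 and Kcnh8. Kcnj13 had 15.1 to 16.1 TMM-scaled CPM in the 4 libraries of replicate 1, 22.0 to 25.0 in the 3 of replicate 4 and 23.9 to 25.5 in the 4 of replicate 5. On the log2 scale it was higher by 0.56 in replicate 4 and 0.64 in replicate 5 than in replicate 1 (adjusted p = 8.08e-05). Kcnt2 had 239 to 252, 335 to 352 and 280.1 to 325 in the same order (log2 0.46 and 0.32, adjusted p = 3.68e-04). Neither gene's replicate 1 range reached the other ranges. Kcnip2 was lower in replicates 4 and 5, with 61.7 to 78.2, 44.7 to 55.4 and 46.2 to 53.0 (log2 -0.40 and -0.52, adjusted p = 0.00116). Kcnj9 and Kcna2 stood out in replicate 5, by log2 0.49 and 0.38 against replicate 1, and by only 0.17 and 0.09 in replicate 4 (adjusted p = 3.34e-04 and 0.00116). Kcnh8 stood out in replicate 4, by 0.48, and by 0.10 in replicate 5 (adjusted p = 0.00123).

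Within the neuronal clusters, 3 members were called in all 5: Kcnj13, Kcnd2 and Kcnh5. A further 8 were called in 4 of them (Kcnh8, Kcnip2, Kcnt2, Kcnq3, Kcnma1, Kcnc2, Kcnip4 and Kcnd3), and 23 of 79 in none. These are 3.80%, 10.1% and 29.1% of the members, against 2.92%, 6.72% and 44.5% of 18804 genes. In cluster 2, Kcnip2 had 159 to 185 TMM-scaled CPM in replicate 1, 121 to 149.7 in replicate 4 and 102 to 129.5 in replicate 5 (log2 -0.31 and -0.64, adjusted p = 2.11e-05). Its pore Kcnd2 had 4069 to 4575, 4683 to 4879.8 and 3438 to 3637 there (log2 0.14 and -0.28, adjusted p = 1.97e-04), highest in replicate 4 and lowest in replicate 5. Kcnt2 in cluster 2 had 96.1 to 122, 139 to 169 and 141 to 175, with replicate 1 below all others (adjusted p = 2.86e-05). Kcnh8 in cluster 5, where glial RNA is high, had 65.6 to 98.5, 96.8 to 108 and 41.8 to 63.8 (log2 0.36 and -0.64, adjusted p = 5.12e-07), and in cluster 0 the log2 values were 0.61 and 0.64. Kcnh5 in cluster 1 differed by 0.17 and -0.17 (adjusted p = 0.0130).

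Outside neurons, a test added after the levels had been seen called 15 of 51 members in oligodendrocytes (29.4%, against 17.9% of all genes), 15 of 57 in astrocytes (26.3%, against 19.5%) and 1 of 41 in glia (2.44%, against 2.04%). It also called 4 of 11 in microglia (36.4%, against 6.97%), 5 of 24 in leptomeningeal cells (20.8%, against 5.36%) and 2 of 13 in pericytes (15.4%, against 0.824%), and 0 of 7 in endothelium (against 1.08%) and 0 of 9 in smooth muscle (against 0.194%). Of the called members, 12 of 15 in oligodendrocytes, 11 of 15 in astrocytes, 4 of 4 in microglia and 4 of 5 in leptomeningeal cells were higher in both replicates 4 and 5 than in replicate 1. With replicate 4 alone against replicate 1, 15, 14, 4 and 4 of these members were higher in the same order. So were 1328 of 2212, 1685 of 2737, 167 of 237 and 209 of 350 of all called genes, which also leaned upward. The 4 neuronal markers were also higher on average in replicates 4 and 5, and summed to 921 to 1104 CPM in oligodendrocytes of replicate 1, 1013 to 1453 in replicate 4 and 1247 to 1686 in replicate 5. In astrocytes the sums were 645 to 948, 889 to 1157 and 1130 to 1469 CPM in the same order. In microglia they were 813 to 1461, 1287 to 1770 and 1380 to 1991 CPM, and in leptomeningeal cells 908 to 1275, 1259 to 2022 and 1294 to 1875 CPM. The part of neuronal RNA in these calls was not tested. Kcnab1 in oligodendrocytes had the smallest p of these tests outside neurons. It had 301 to 361 TMM-scaled CPM in replicate 1, 593 to 663 in replicate 4 and 575 to 718 in replicate 5, higher by 0.90 and 0.93 on the log2 scale (adjusted p = 1.22e-08). All 7 libraries of replicates 4 and 5 were above all 4 of replicate 1. In astrocytes the values were 0.41 and 0.66 (adjusted p = 2.44e-04), and in neurons 0.01 and -0.39. The 1 member called in glia was Kcnj13, at log2 -1.34 and -1.003 (adjusted p = 4.87e-05), whereas in neurons it was at 0.97 and 1.01 (adjusted p = 2.10e-05) and in astrocytes at 0.80 and 0.94 (adjusted p = 9.24e-04).

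**Figure D5:**
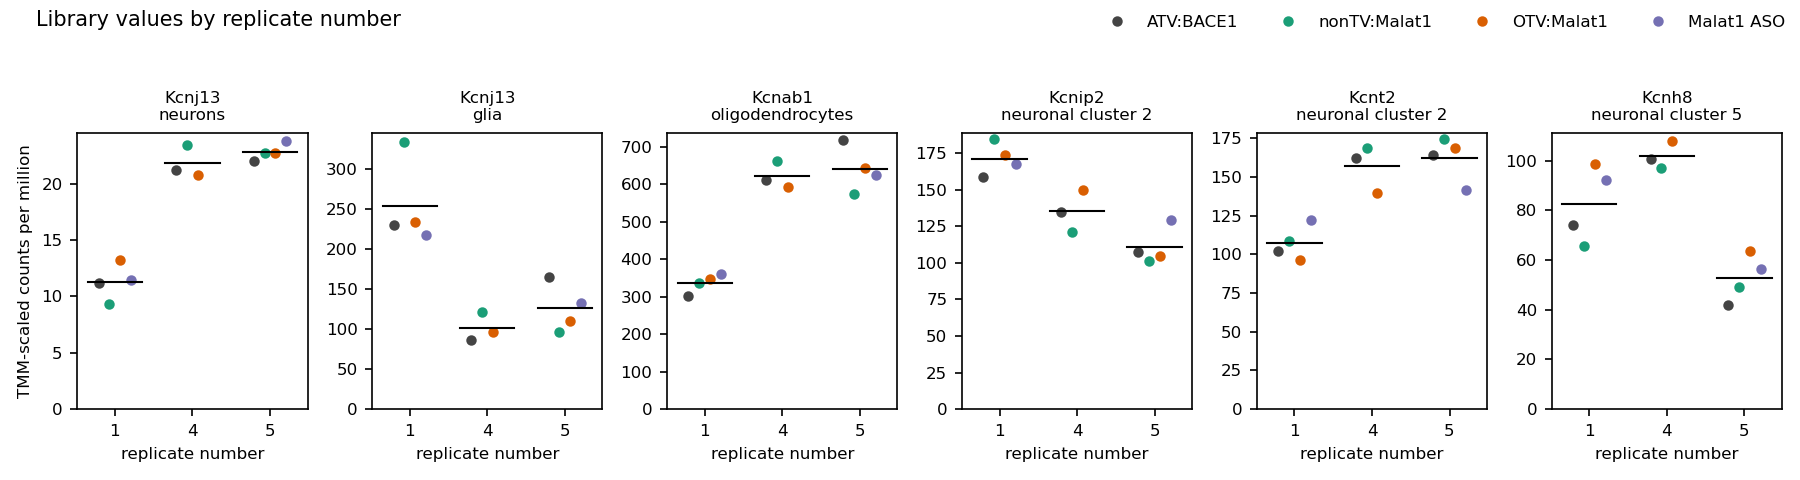
TMM-scaled CPM by replicate number for 6 combinations of gene and class or neuronal cluster; each point is 1 library, coloured by dosing group, and the line is the mean over libraries. Kcnj13 in neurons, Kcnab1 in oligodendrocytes and Kcnt2 in cluster 2 were higher in replicates 4 and 5 than in replicate 1, Kcnj13 in glia and Kcnip2 in cluster 2 were lower, and Kcnh8 in cluster 5 was lowest in replicate 5.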

How the data were processed

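The deposited matrix holds whole-number UMI counts per gene and nucleus, with no normalization, per the file headers. Its column sums equalled the deposited total count in all 110304 nuclei. Per the submitters' processing notes, Cell Ranger 5.0.0 and Seurat 4 were used with the build mm10. The strand setting is not given in the sources used here. Class names, clusters, doublet calls and batches are the authors' deposited labels.

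Counts were summed per library and class or neuronal cluster, keeping libraries with at least 20 nuclei, and nuclei named perivascular macrophages (125) were left out of the class comparison. Tests used edgeR 4.0.16 (R 4.3.3): quasi-likelihood fits with trimmed mean (TMM) scaling over all genes that passed its expression filter, all 4 groups in a fit, Benjamini-Hochberg adjustment over all genes and a threshold of 0.05. Of the 92 members, 84 passed the filter in all nuclei. The main dosing fits held the group only, and the replicate number entered as a block in an alternative. Alternatives used DESeq2 1.42.0, other scaling, filters, nuclei and libraries. On simulated counts with 200 genes changed 2-fold, the fits recovered 81% of them in all nuclei and 76.5% in neurons, with 12 and 6 false calls. The simulation had a fixed spread and no replicate differences, so it does not give the sensitivity in these data.

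The labels number the replicates, and deposited batches follow these numbers. Deviations from group means over 7617 genes correlated at 0.601 to 0.889 in the 15 pairs of libraries with the same number and at -0.859 to 0.456 in the 30 pairs with different numbers, so the numbers pair the samples.

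Members, lists and the naming rule were chosen with earlier results of these data known. The rule names genes with the largest folds over the next class (at least 2-fold outside neurons) or cluster (at least 1.5-fold), the flattest over clusters, those with the smallest p per contrast, and textbook members of each family. Kcnb2, Kcnc4, Kcnk18, Kcnq1, Kcnh4, Kcna4 in cluster 2, Kcnh8 and Kcnab1 in oligodendrocytes, Kcnip4 and Kcnd2 in pericytes and the members listed for glia were named after their values were seen. Some genes that the rule names are not reported here.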

Additional observations from a re-analysis of the deposited data

Results flagged for a closer look

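Kcnj13 moved in opposite directions with the replicate number in 2 classes. In neurons it was higher in replicate 5 than in replicate 1 by 1.01 on the log2 scale, and in the class named glia, where its level is highest, the same difference was -1.003. All libraries of replicates 4 and 5 lay above all libraries of replicate 1 in neurons, and all lay below them in glia. The difference between the classes was not itself tested. Per library, Kcnj13 had 9.11 to 13.2 CPM in neurons of replicate 1, 19.7 to 22.6 in replicate 4 and 22.6 to 24.4 in replicate 5. In glia it had 208 to 323, 78.5 to 113 and 91.5 to 154 CPM. Gigyf2, the gene that overlaps Kcnj13, had means of 149.7, 142 and 141 CPM in neurons and 280.1, 203 and 207 CPM in glia in the same order. The choroid plexus gene Ttr had 393, 291 and 366 CPM in neurons and 4120.4, 3605 and 2842 CPM in glia.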

How the results depend on the processing

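Of the values tried under other settings, 421 of the counts that answer a comparison kept their size within 1.5 times and 26 did not. A count of 0 that stayed 0, as in many of the dosing fits, was taken as kept. Such counts are not read as stability, since the main fit in all nuclei did not call Malat1 either. With the ATV:BACE1 libraries alone, 2 members instead of 4 were highest in microglia, 3 instead of 1 in pericytes and 0 instead of 2 in endothelium, and the log2 ratio of Kcne1 between clusters 0 and 5 turned from 1.18 to -0.028. Without nuclei under 1000 UMIs the counts were 5 in leptomeningeal cells (3 with all nuclei), 3 in pericytes and 1 in endothelium. Without called doublets, 13 instead of 20 members were highest in cluster 1, and Kcnip4 in pericytes stood at log2 -0.055 for nonTV:Malat1 against ATV:BACE1. Leaving out 1 library at a time gave 0 to 2 members for pericytes and 1 to 2 for endothelium.

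Without a filter on low counts, the classes had 2 called members for nonTV:Malat1 against ATV:BACE1 (Kcnip4 and Kcnd2) and 1 for OTV:Malat1 against nonTV:Malat1 (Kcnip4), all in pericytes, where 0.034% and 0.0134% of all gene-by-class tests were called. With the replicate block, each of these contrasts had 1, again Kcnip4 in pericytes (0.0257% and 0.0239% of all tests), and the block changed no other call. Leaving out 1 library gave 0 to 2 and 0 to 1 calls, with nonTV:Malat1 replicate 5, and for the second contrast also either Malat1 ASO library, being those whose absence gave calls (0.0265% of all tests for the first contrast, 0.00468% to 0.0114% for the second). The count of members that differ by replicate number in all nuclei ranged from 27, without ATV:BACE1 replicate 4, to 38, without OTV:Malat1 replicate 4, against 41 with all libraries; 34.9%, 43.3% and 47% of all genes were called in these fits. The causes were not tested.

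Precision is limited by 2 or 3 mice in a group and by few nuclei in smooth muscle (330), pericytes (930) and endothelium (1106).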

Other observations

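Nuclei named perivascular macrophages (125) were too few for a comparison between libraries. Pooled over all libraries, Kcnk13 had 31 UMIs there, a level of 224 CPM with an exact Poisson interval of 152 to 317 at the 95% level, which covers counting error only. The microglial gene Kcnk6 had 5 UMIs, 36.1 CPM (11.7 to 84.2), and Kcnip4, highest in neurons, had 50 UMIs, 361 CPM (268 to 475).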
